A study of Mus musculus with 15 samples.

Results

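miR-101a and miR-101b are closely related liver miRNAs from separate genes, and their 3p arms, mmu-miR-101a-3p and mmu-miR-101b-3p, were followed here probe by probe and mouse by mouse across 3 diets. Of 696 mouse miRNAs on the array, 3 entries carried a matching name, and the 2 with the 3p arm are described in full, the other being miR-101a-5p. The entries were found by name, but the pair was chosen by its measured values on these same arrays, in the comparisons between diets. Its diet differences are therefore a description, with no test, and nothing is supported with them.

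The study asked how long-term metformin and caloric restriction alter miRNAs in mouse liver. Male B6C57/J mice entered it at the age of 1 year and stayed on their diet for the rest of life. Total RNA from the liver of each mouse was labelled with Cy3 and hybridized to 1 Agilent 1-color mouse miRNA array, on which the brightness of each spot is read by a scanner. The standard diet group (SD, 5 mice) ate AIN-93G ad libitum, the caloric restriction group (CR, 5 mice) was held to 40% restriction of that standard diet, and the metformin group (Met, 5 mice) ate AIN-93G ad libitum with metformin added at 0.1% w/w. The labels number the mice within each group, so each array is a separate animal.

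miRNAs bind messenger RNAs mainly through the seed near their 5′ end and lower the stability and translation of those messages. miR-101 is best known as a repressor of Ezh2, the histone methyltransferase of Polycomb repressive complex 2, and it also targets Mcl1, which protects cells from apoptosis, and Ptgs2, the inducible cyclooxygenase of prostaglandin synthesis. In liver it is known as a miRNA with low levels in hepatocellular carcinoma, where its loss is linked to higher EZH2.

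The mature sequences below show how little separates the members, and why miR-144-3p was followed beside them. They are RefSeq sequences from the tables of build GRCm38.p6, written 5′ to 3′, and capitals mark the seed, bases 2 to 8. Of 16 mature names looked up, 16 matched.
mmu-miR-101a-3p: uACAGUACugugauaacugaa
mmu-miR-101b-3p: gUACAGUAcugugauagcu
mmu-miR-144-3p: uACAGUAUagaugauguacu

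The entry for miR-101b-3p starts 1 base upstream of that for miR-101a-3p, so the same run of bases falls in a shifted seed. Aligned on that run, 17 of 18 bases are the same and the difference is A16G, counted from 1 at the 5′ end of miR-101a-3p. miR-144-3p, an erythroid miRNA, has the first 7 bases of miR-101a-3p and differs within the seed by C8U, counted the same way. Each of these 3 seeds was found in 1 of 1679 mature mouse names in the table. GC content was 33.3% over the 21 bases of miR-101a-3p and 42.1% over the 19 bases of miR-101b-3p. A check of GC content over the tested miRNAs was void, since a sequence was found by name for 134 of 178 (75.3%, where 80% was required).

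The hairpins come from separate loci, and capitals mark the 3p arm in each. Mir101a is 83 bases on the minus strand at chr4:101346945-101347027 and overlaps the gene E130102H24Rik. Mir101b is 97 bases on the plus strand at chr19:29135279-29135375 and overlaps Rcl1.
Mir101a: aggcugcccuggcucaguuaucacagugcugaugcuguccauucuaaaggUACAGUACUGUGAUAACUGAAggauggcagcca
Mir101b: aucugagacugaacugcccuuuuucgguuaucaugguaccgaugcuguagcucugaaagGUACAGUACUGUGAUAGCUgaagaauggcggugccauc

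Several CR arrays stood apart in measures taken over all miRNAs. Between 170 and 205 miRNAs were flagged as detected on SD arrays and between 182 and 191 on Met arrays, against 187, 167, 151, 184 and 198 in CR mice 1 to 5. The background-subtracted signal summed over all mouse miRNAs was 142180, 149904, 184086, 145415 and 135623 in SD mice 1 to 5, 120111, 144155, 148314, 118334 and 157969 in Met mice 1 to 5, and 117470, 79094, 67322, 92707 and 122534 in CR mice 1 to 5. CR mice 2 and 3 thus had the fewest detected miRNAs and the lowest summed signals of the 15 arrays, and CR mouse 4 had the next lowest summed signal. Median signals of negative control spots were 109.3 ± 3.90 in SD, 114 ± 2.92 in CR and 115.8 ± 1.79 in Met (mean ± SD, n = 5). The arrays lay on 2 slides, with all SD arrays and Met mice 1 to 3 on slide 1 and all CR arrays and Met mice 4 and 5 on slide 2, so CR and SD never shared a slide, and diet and slide cannot be told apart between them except through Met. Results are given below with all CR mice and without CR mice 2 and 3, a choice made after seeing the data.

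miR-101a-3p was lower in every CR mouse than in any SD or Met mouse. Its background-subtracted signal, in scanner units, was 93.4, 89.4, 107.7, 86.3 and 85.9 in SD mice 1 to 5. It was 92.1, 83.8, 94.0, 83.4 and 107.5 in Met mice 1 to 5, and 69.4, 8.34, 4.45, 43.5 and 71.0 in CR mice 1 to 5. The SD and Met values overlapped across nearly their whole range, while the highest CR value lay under the lowest of either group. How many other miRNAs were separated in this way was not counted, so nothing is read from it. The means were 92.6 ± 9.01 in SD, 92.2 ± 9.81 in Met and 39.3 ± 32.0 in CR (mean ± SD, n = 5), so that SD and Met differed by less than their spread and CR was lowest. Without CR mice 2 and 3 the CR mean was 61.3 ± 15.4 (n = 3). The CR mice themselves fell into levels, mice 1 and 5 at 74.9% and 76.7% of the SD mean, mouse 4 at 47.0%, and mice 2 and 3 at 9.01% and 4.81%. In bulk liver RNA, fewer cells of a type and less RNA per cell cannot be told apart.

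miR-101b-3p, from the other locus, had a like pattern, with CR mice 2 and 3 again lowest. Its background-subtracted signal was 190.0, 200.1, 255.8, 207.5 and 202.1 in SD mice 1 to 5. It was 189.8, 193.0, 206.4, 176.8 and 235.2 in Met mice 1 to 5, and 162.5, 21.6, 15.5, 94.2 and 134.3 in CR mice 1 to 5. Again SD and Met overlapped, and all 5 CR mice lay below both groups, a separation likewise not counted over other miRNAs. The means were 211.1 ± 25.8 in SD, 200.2 ± 22.2 in Met and 85.6 ± 65.9 in CR (n = 5), or 130.3 ± 34.3 in CR without mice 2 and 3 (n = 3). CR mice 1 to 5 stood at 77.0%, 10.2%, 7.34%, 44.6% and 63.6% of the SD mean. The members have nearly the same sequence, and binding of either to the other's probes was not tested. Their likeness is therefore not read as 2 separate measurements.

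**Figure D1:**
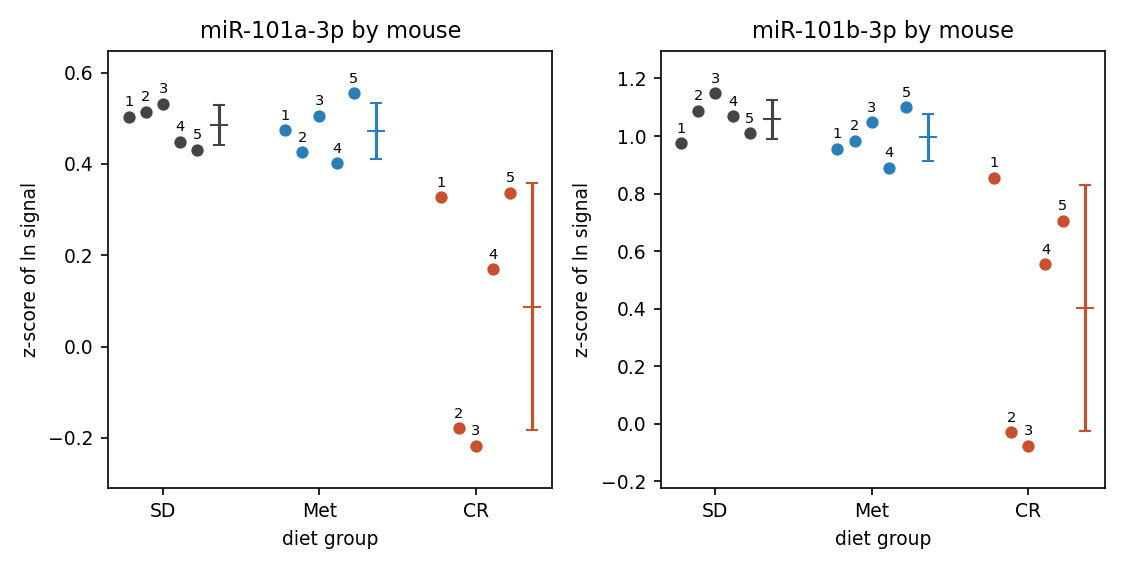
z-scores of ln signal of miR-101a-3p (left) and miR-101b-3p (right) in each mouse, numbered within its group, with the group mean and standard deviation beside the points (n = 5). All 5 CR mice lie below all SD and Met mice on both panels, and CR mice 2 and 3 are the lowest. How many other miRNAs are separated in this way was not counted.

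Each member was read by 2 probes, and each probe by up to 10 spots that were not outliers. For miR-101a-3p, the probe A_54_P2268 gave 74.8%, 9.74%, 4.20%, 46.3% and 74.6% of its own SD mean in CR mice 1 to 5. The other, A_54_P4365, gave 75.03%, 8.32%, 5.40%, 47.7% and 78.7%. The pair of probes ranked the CR mice alike except for mice 1 and 5, which were close to each other. For miR-101b-3p, the probe A_54_P2593 gave 77.0%, 9.46%, 6.61%, 43.9% and 61.5% of its SD mean in CR mice 1 to 5, and A_54_P2594 gave 77.0%, 10.6%, 7.68%, 45.0% and 64.6%. In Met mice all 4 probes stayed between 80.7% and 116.2% of their SD means. Probe sequences were not available, so the probes are not taken as separate readings of the 2 members.

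**Figure D2:**
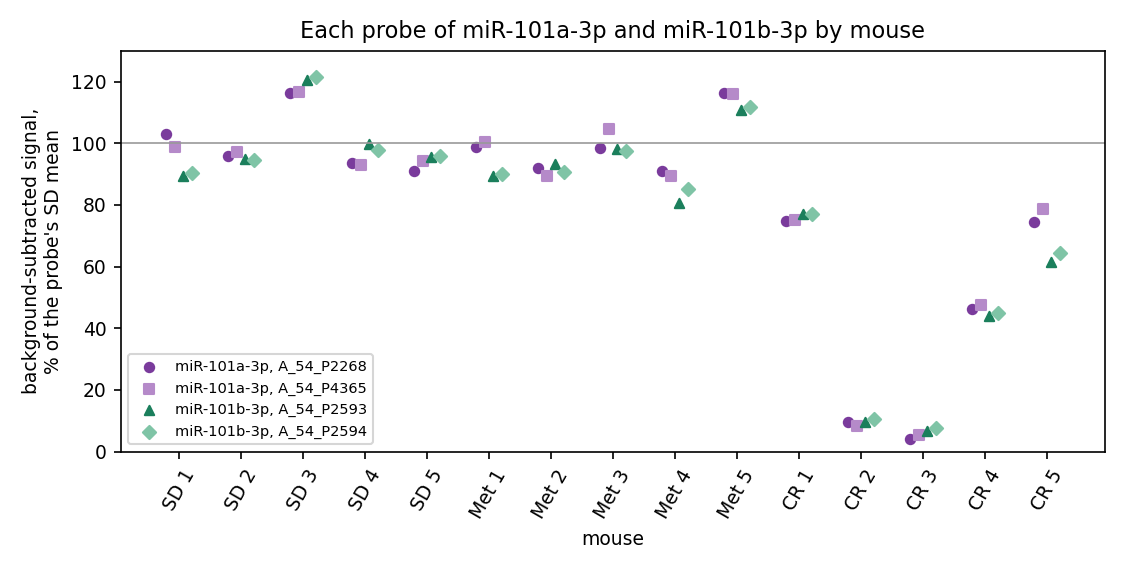
Background-subtracted signal of each of the 4 probes of miR-101a-3p and miR-101b-3p in each mouse, as a percentage of that probe's own SD mean (line at 100). The 4 probes move together from mouse to mouse, and CR mice 2 and 3 lie between 4.20% and 10.6%. Binding of either member to the other's probes was not tested.

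The lowest values were at the edge of what the array reads. The software called miR-101a-3p detected on 13 of 15 arrays, all but CR mice 2 and 3, and miR-101b-3p on 15 of 15. In CR mice 2 and 3, 0 spots of either miR-101a-3p probe were flagged as well above background, against 9 or 10 per probe in CR mice 1, 4 and 5. Probe A_54_P2593 of miR-101b-3p had 1 such spot in CR mouse 2 and 0 in mouse 3, and A_54_P2594 had 10 and 8. The percentages for miR-101a-3p in these 2 mice are therefore close to background and carry little precision. None of the mouse miRNA spots was saturated (0 on the 15 arrays).

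The 5p arm, miR-101a-5p, was at background. Its 4 probes had 0 spots well above background and it was detected on 0 of 15 arrays, with background-subtracted signals from -2.89 to 1.38. The array held no entry for miR-101b-5p or miR-101c.

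Differences between diets were expressed as in the study, on z-scores of ln signal, so that all arrays have equal mean and spread. The Z ratio is the difference between group means in units of the standard deviation that such differences have across the 696 miRNAs. A miRNA is termed called when it passed 3 limits, a p from limma of at most 0.05, a Benjamini-Hochberg adjusted p of at most 0.3, and a Z ratio of at least 1.5 in size. Tests covered 178 miRNAs, those with detection on every array of 1 group or more. miR-101a-3p entered through SD and Met, with 5 of 5 arrays detected in each, against 3 of 5 in CR. Between CR and SD, 31 of 178 were called (17.4%), 26 of them lower in CR (14.6%), and between CR and Met 37 were called (20.8%), 29 of them lower (16.3%). Between Met and SD, 2 were called (1.12%).

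Limma calls are given for other miRNAs only. Since the pair was chosen by values from these contrasts, its Z ratios are set out by size, and nothing is read from them beside the shares of 17.4%, 20.8% and 1.12%. The comparisons also share arrays, so each is given for its own values. With limma, 12 miRNAs had an unadjusted p of 0.05 or less between Met and SD.

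The z-score of miR-101a-3p was 0.486 ± 0.0439 in SD, 0.472 ± 0.0616 in Met and 0.0877 ± 0.269 in CR (mean ± SD, n = 5). The difference between CR and SD was -0.398, a Z ratio of -2.39, and that between CR and Met was -0.385, a Z ratio of -2.48. These ranked 24 and 25 from the lowest of the 178. The limma fit gave both differences a standard error of 0.0959. It is pooled over all groups and is not the spread of either comparison alone. Between Met and SD the Z ratio was -0.221, with a difference of -0.0135 that was smaller than the spread among SD mice. Without CR mice 2 and 3 the Z ratios were -1.80 against SD and -2.06 against Met. When CR mouse 4 was left out too, they shrank to -1.29 and -1.46, less than 1.5 in size.

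For miR-101b-3p the z-score was 1.06 ± 0.0680 in SD, 0.995 ± 0.0813 in Met and 0.402 ± 0.429 in CR (n = 5). Its differences of -0.656 from SD and -0.594 from Met (standard error 0.149, pooled likewise) gave Z ratios of -3.95 and -3.83, which ranked 8 and 14 from the lowest. The Z ratio between Met and SD was -1.03, again with a difference (-0.0630) within the spread of the SD mice. Without CR mice 2 and 3 the Z ratios were -3.07 and -3.08, and without CR mice 2, 3 and 4 they were -2.33 and -2.25.

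The size of these differences varied with how signals were processed. When background-subtracted signals were scaled by the 75th percentile of probes of miRNAs detected on all 15 of them, the log2 difference of miR-101a-3p between CR and SD was -1.33 while the median over tested miRNAs moved by 0.31, which puts miR-101a-3p at -1.64 relative to that median. miR-101b-3p differed by -1.25, or -1.56 relative to the median. Without CR mice 2 and 3 the differences shrank to -0.39 for miR-101a-3p and -0.50 for miR-101b-3p, or -0.53 and -0.63 relative to a median of 0.13. Most of the size on this log2 scale thus came with these mice. Also on background-subtracted signal and with all mice, the log2 difference of miR-101a-3p between CR and SD was -1.57 by all probes and -2.04 by total gene signal, and that of miR-101b-3p was -1.48 and -1.37. The scaled total gene signal of miR-101a-3p in CR mice 2 and 3 was held at the floor of 0.01, so the -2.04 depends on that floor. Without these mice it was -0.38. On median signal with background left in, which the z-scores use too, the log2 difference with all mice was -0.41 by quantile normalization and -0.43 with no scaling for miR-101a-3p, and -0.58 and -0.73 for miR-101b-3p. Background treatment and scaling both differ between these sets, and their parts in the size were not tested separately. By all probes the Z ratio of miR-101a-3p against SD was -1.75, against -3.61 by detected probes, though its log2 difference was the larger. A Z ratio is divided by the spread of differences on its own scale. A call lost by all probes therefore need not mean a smaller difference. Without scaling, the background-subtracted signals of miR-101a-3p in CR mice 2 and 3 were 9.01% and 4.81% of the SD mean.

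Slide 2 alone held CR mice and Met mice 4 and 5. There the Z ratio between CR and Met was -2.33 for miR-101a-3p and -3.54 for miR-101b-3p. Met mice on slide 1 averaged 90.0 ± 5.42 in background-subtracted signal of miR-101a-3p (n = 3) and those on slide 2 averaged 95.5 ± 17.0 (n = 2). The same means for miR-101b-3p were 196.4 ± 8.82 and 206.0 ± 41.3. Met mouse 4, on slide 2, had the lowest Met value of both members and Met mouse 5, also on slide 2, the highest, and the part of the slide in the result was not tested with these few mice. On slide 1 the Z ratios between Met and SD were -0.327 for miR-101a-3p and -1.17 for miR-101b-3p. With the slide as a block, the Z ratios against SD were -2.28 for miR-101a-3p and -3.66 for miR-101b-3p.

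**Figure D3:**
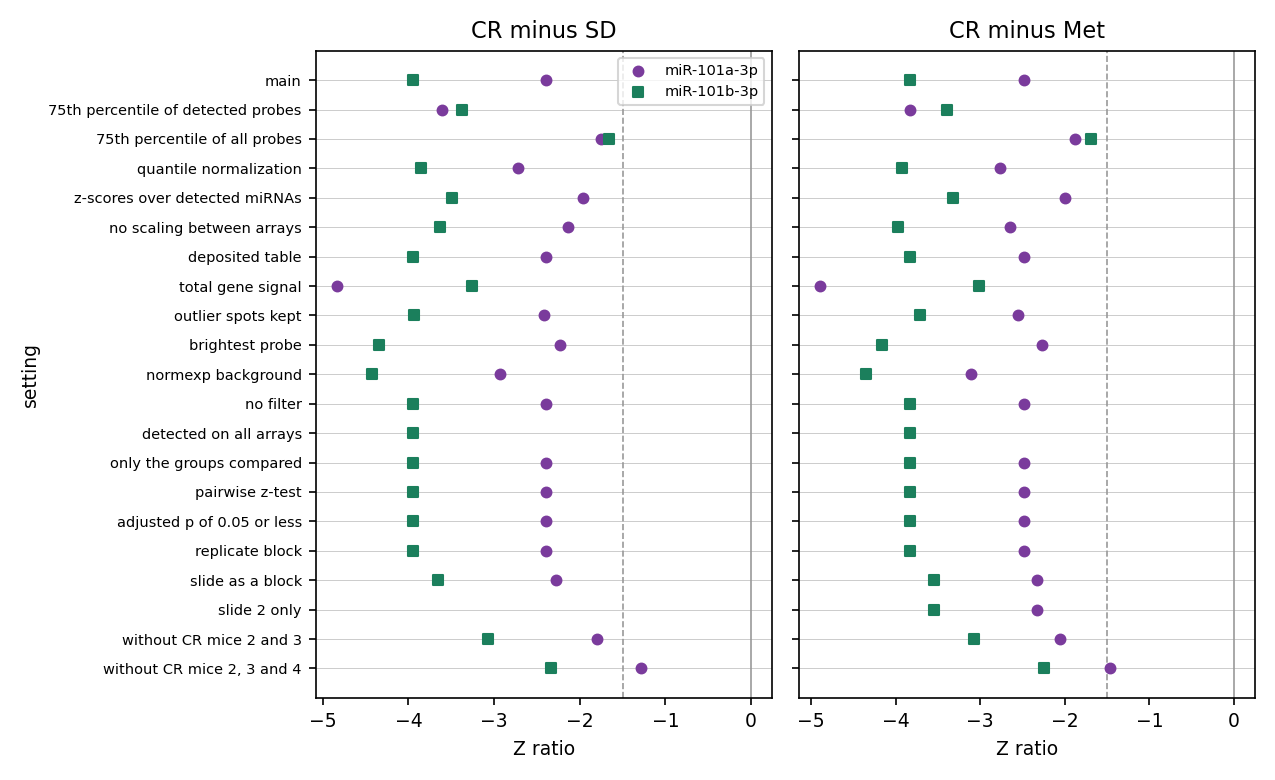
Z ratios of miR-101a-3p (circles) and miR-101b-3p (squares) between CR and SD (left) and CR and Met (right) under the alternatives other than single mice left out and single probes, with a dashed line at -1.5. All points lie below 0, and the circles right of the dashed line are miR-101a-3p without CR mice 2, 3 and 4, at -1.29 and -1.46.

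Other miRNAs known to repress the same targets were read beside the pair. Of 8 miRNAs known to repress Ezh2, 6 were tested, and between CR and SD 1 was called higher and 1 lower in CR, where 5 of all 178 tested were called higher and 26 lower, with a median Z ratio of 0.271 against -0.0967 over all 178 tested. The miRNA that rose was let-7b-5p, of the let-7 family of differentiation regulators, at a Z ratio of 1.85 (limma adjusted p = 0.0438, z-score above the SD mean in 5 of 5 CR mice). It was not called with scaling by all probes (0.555) or with no scaling (0.566), and its background-subtracted signal in CR mouse 3 was 77.4% of the SD mean. The 1 that fell was miR-26b-5p, at -3.36 (limma adjusted p = 0.0390, below the SD mean in 5 of 5), which was not called against SD without CR mice 2 and 3 (-1.63), nor by detected probes (-1.28), all probes (-0.792) or total gene signal (-1.21). Between CR and Met miR-26b-5p was the 1 called, where 37 of all 178 were, at -3.99 (limma adjusted p = 0.0262, lower in 5 of 5), though not by all probes (-0.961) or total gene signal (-1.26), and the list's median was -0.657 against -0.188 over all tested. Calls were gained as well, let-7c-5p higher than in SD by quantile normalization (2.58) and z-scores over detected miRNAs (2.01), and let-7b-5p higher than in Met by the same 2 (2.70 and 1.62), while those of miR-26a-5p and miR-214-3p are given further on. miR-124-3p and miR-138-5p, also of this list, were detected on 0 of 15 arrays.

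Among the 4 miRNAs of the Mcl1 list, 2 of the miR-29 family fell in CR and the others were not called, where 26 of all 178 tested fell against SD and 29 against Met. miR-29b-3p had Z ratios of -3.81 relative to SD (limma adjusted p = 0.0154) and -3.75 relative to Met (limma adjusted p = 0.0255), and lay below both means in 5 of 5 CR mice, but was not called by all probes (-1.26 in both comparisons). miR-29c-3p had -3.29 against SD (limma adjusted p = 0.0365) and -3.84 against Met (limma adjusted p = 0.0262), also in 5 of 5 CR mice. It was not called against SD without CR mice 2 and 3 (-1.63), nor against SD and Met by detected probes (-1.11 and -1.45), all probes (-0.720 and -0.854) or total gene signal (-1.07 and -1.05). miR-125b-5p was not called (1.26 against SD, 0.223 against Met). It was called higher in CR than in SD with quantile normalization (3.34), by detected probes (1.95), by total gene signal (1.69), with z-scores over detected miRNAs (2.08) and without CR mice 2 and 3 (2.29), and higher than in Met by quantile normalization (2.27). The list's median Z ratio was -1.5001 against SD and -2.20 against Met. Of the 4 miRNAs of the Ptgs2 list, miR-26b-5p was again the 1 that fell, in both comparisons, and the medians were -0.788 and -1.14. Between Met and SD, limma called 0 miRNAs of these 3 lists, and at an unadjusted p of 0.05 or less there were 0 of 6 in the Ezh2 list, 1 of 4 in the Mcl1 list and 0 of 4 in the Ptgs2 list, beside 2 called and 12 at that p among all 178. Their median Z ratios there were 3.17, 1.63 and 0.762, against 0.138 over all tested. The unit of a Z ratio between Met and SD was a z-score difference of 0.0609, against 0.166 between CR and SD. Z ratios of these comparisons are therefore not of like size. miR-144-3p, which has nearly the seed of miR-101a-3p, was detected on 5 of 15 arrays and not tested.

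The relatives in these lists share a seed yet differed in their signals in the CR mice, so their sequences are shown, again with the seed in capitals.
mmu-miR-26a-5p: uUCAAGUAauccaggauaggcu
mmu-miR-26b-5p: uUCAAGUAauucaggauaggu
mmu-miR-29a-3p: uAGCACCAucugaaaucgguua
mmu-miR-29b-3p: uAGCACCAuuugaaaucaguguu
mmu-miR-29c-3p: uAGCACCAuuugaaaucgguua

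From miR-26a-5p to miR-26b-5p the bases change by C11U and C21U, and from miR-29a-3p to miR-29c-3p by C10U, counted from 1 at the 5′ end of the first of each pair. In CR mice 2 and 3, miR-26a-5p was at 68.9% and 50.6% of its SD mean and miR-26b-5p at 19.1% and 23.99%. In the same mice miR-29a-3p was at 77.0% and 52.5%, miR-29b-3p at 23.2% and 9.57%, and miR-29c-3p at 31.5% and 18.0%. The relatives thus stood at unequal levels on the same arrays, whose summed signals (79094 and 67322) were below the SD mean of 151441. In CR mice 1 and 5, miR-26a-5p was at 118.3% and 119.4% and miR-29a-3p at 117.9% and 117.6%. There miR-26b-5p was at 88.8% and 94.7%, miR-29b-3p at 75.1% and 76.8%, and miR-29c-3p at 90.8% and 89.6%. In CR mouse 4 miR-26a-5p was at 75.1% and miR-29a-3p at 82.8%, with miR-26b-5p at 55.7%, miR-29b-3p at 51.5% and miR-29c-3p at 60.2%. GC content was 40.9% for miR-26a-5p and miR-29a-3p, 33.3% for miR-26b-5p, 34.8% for miR-29b-3p and 36.4% for miR-29c-3p, and its part in the result was not tested. miR-26a-5p and miR-29a-3p were not called in either comparison (Z ratios of -0.208 and 0.285 against SD, -1.46 and -0.660 against Met), and their signs changed with the scaling. With quantile normalization both were called higher in CR than in SD (1.56 and 1.61), and with no scaling miR-26a-5p was called lower than in Met (-2.47).

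**Figure D4:**
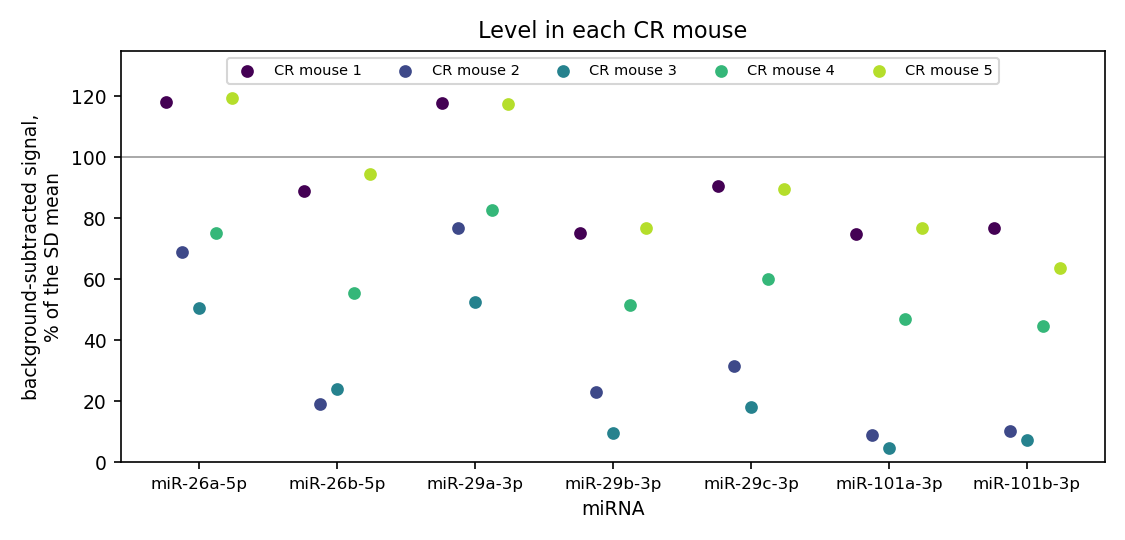
Background-subtracted signal in each of the 5 CR mice as a percentage of the SD mean (line at 100), for miR-26 and miR-29 relatives and the miR-101 pair. CR mice 2 and 3 are low for all 7 miRNAs, from 77.0% for miR-29a-3p down to 4.81% for miR-101a-3p, which was not detected in these 2 mice.

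The miRNAs whose z-scores most resembled the mean of the pair were sought among 138 others detected on all 15 arrays. Pearson's r was 0.997 for miR-30e-5p, 0.985 for miR-148a-3p, 0.980 for miR-21a-5p, 0.977 for miR-193a-3p and 0.976 for miR-192-5p (n = 15 arrays). The median r was 0.111, with 17 of the 138 over 0.9 and 59 under 0. These r are a description over arrays that share their z-scaling, and the low CR mice weigh heavily in them. Spearman's rho for the 5, in the same order, was 0.979, 0.893, 0.879, 0.907 and 0.804. Without CR mice 2 and 3 (n = 13), r was 0.980, 0.911, 0.873, 0.858 and 0.853.

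Within SD and Met mice alone (n = 10), miR-30e-5p kept the highest r of those compared, at 0.957. There r was 0.613 for miR-148a-3p, 0.543 for miR-21a-5p, 0.779 for miR-193a-3p and 0.389 for miR-192-5p, each lower than over all 15 arrays. miR-193a-3p ranked 2 of the 138 there and miR-192-5p 30. miR-101a-3p and miR-101b-3p had r of 0.989 with each other over all 15 arrays and 0.734 over SD and Met mice. Binding of either to the other's probes, which was not tested, limits what this r shows. All 5 were called lower in CR than in SD and in Met, and since they were picked for likeness to the pair, those calls add no support. With scaling by all probes, miR-21a-5p was the only 1 of the 5 still called, though a call lost there need not mean a smaller difference. miR-193a-3p was also not called by total gene signal (-1.36 against SD, -0.918 against Met), nor against Met by detected probes (-1.40) or without CR mice 2 and 3 (-1.39). The Z ratios against SD were -2.68 for miR-30e-5p, -4.89 for miR-148a-3p, -8.06 for miR-21a-5p, -2.82 for miR-193a-3p and -5.33 for miR-192-5p. None of these 5 shares the seed of either member.

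**Figure D5:**
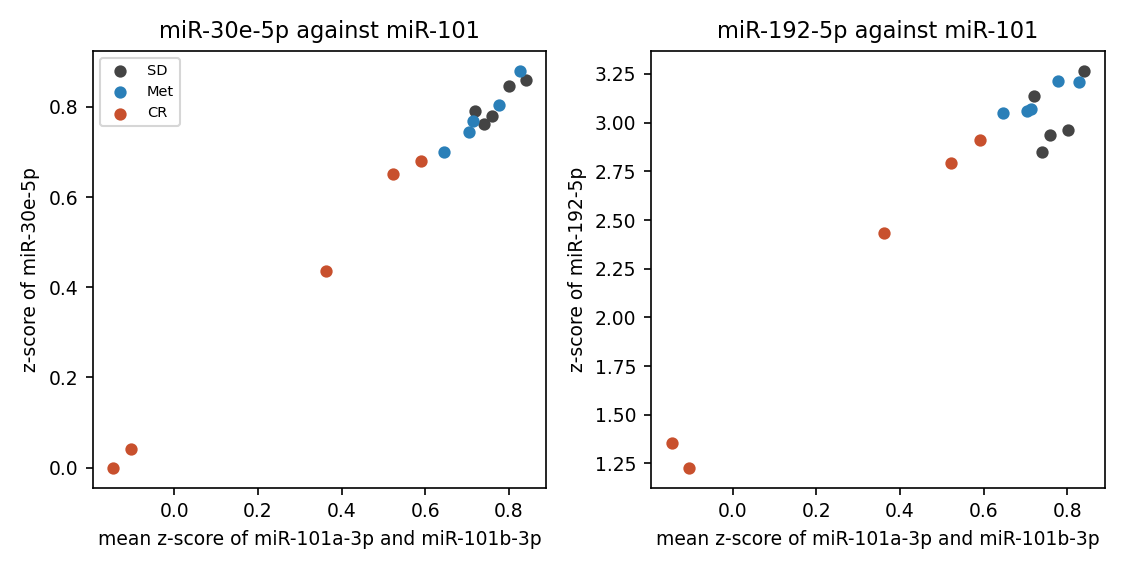
z-score of miR-30e-5p (left) and miR-192-5p (right) against the mean z-score of miR-101a-3p and miR-101b-3p, 1 point per mouse, colored by diet. miR-30e-5p follows the pair within SD and Met mice (r = 0.957, n = 10), where miR-192-5p follows it less closely (r = 0.389).

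Markers of liver cell types were summed in each mouse as background-subtracted signal, and their part in the miR-101 result was not tested. All 3 hepatocyte markers were detected on all arrays, and miR-122-5p, the main hepatocyte miRNA, made up 88.5% of their sum. That sum was 13860, 13980, 22190, 15300 and 21360 in SD mice 1 to 5, 19340, 11430, 7917, 13210 and 20030 in CR mice, and 18990, 18180, 19640, 18910 and 22020 in Met mice. CR mice 2 and 3 were the lowest of the 15 here too, and CR mice 1 and 5 were within the SD range. Of the 3, miR-192-5p and miR-194-5p were called lower in CR in both comparisons, with Z ratios of -5.33 and -3.05 against SD (limma adjusted p = 0.0257 and 0.0440, below the SD mean in 5 of 5 and 4 of 5 CR mice), where 26 of all 178 tested were lower against SD and 29 against Met, and miR-194-5p was not called against SD without CR mice 2 and 3 (-1.42). With scaling by all probes neither was called against SD (-1.09 and -0.555) or Met (-1.29 and -0.709). miR-194-5p was also not called against SD and Met by detected probes (-0.711 and -1.12) or total gene signal (-0.699 and -0.753), nor against SD by quantile normalization (-1.36). miR-122-5p was not called, with Z ratios of 1.31 against SD and -0.221 against Met, but was called higher than in SD with z-scores over detected miRNAs (2.99).

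Summed markers of blood cells were lowest in CR mice 2 and 3 as well, though not each marker, since miR-155-5p in CR mouse 2 (16.8) was within its SD range. Of 5 leukocyte markers 0 were detected on all arrays, miR-223-3p of myeloid cells was the most abundant, and 0 of the 3 tested were called with limma in any comparison (at an unadjusted p of 0.05 or less, 2 for CR against SD, 1 for CR against Met, 0 for Met against SD, beside 74, 80 and 12 of all 178). That 0 holds for the main z-scores. By detected probes miR-155-5p was called higher and miR-142-3p lower in CR, against SD (1.90 and -3.004) and against Met (1.84 and -3.77), where 43 of all tested were called higher and 24 lower against SD, and 45 and 31 against Met. Total gene signal gave the same calls and miR-223-3p lower than in SD (-2.90). miR-223-3p entered the tests through SD and Met and was not detected in CR mouse 3 (9.19), so nothing is read from its call. miR-142-3p was also called lower by all probes against both, and against Met by quantile normalization and normexp. It entered the tests through SD and Met, was not detected in CR mice 2 and 3 (4.05 and 2.47), and its Z ratios rest in part on these values at background, so nothing is read from them. Their sum was 109.6, 120.2, 154.2, 104.0 and 107.3 in SD mice 1 to 5, 87.7, 38.1, 29.5, 62.1 and 125.3 in CR mice, and 90.2, 132.7, 100.8, 167.4 and 164.4 in Met mice. Of 4 erythroid markers 2 were on the array, and miR-451a, the main red cell miRNA, made up 97.3% of their sum. That sum was 503.3, 201.4, 544.4, 310.9 and 310.4 in SD mice, 264.6, 28.1, 34.3, 203.5 and 570.6 in CR mice, and 456.5, 222.8, 376.8, 309.2 and 304.1 in Met mice. miR-451a was not called, with Z ratios of -3.75 against SD (limma adjusted p = 0.144) and -3.42 against Met (limma adjusted p = 0.180), which became -0.514 and 0.371 without CR mice 2 and 3. With no scaling it was called lower than in SD (-3.59). The lowest erythroid sums were those of CR mice 2 and 3 and the highest that of CR mouse 5.

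Endothelial markers, 2 with miR-126-3p at 94.1% of the sum, gave 480.8, 478.9, 664.0, 458.8 and 640.7 in SD mice 1 to 5, 601.4, 168.5, 166.0, 347.6 and 607.7 in CR mice, and 571.8, 491.3, 563.4, 614.1 and 647.8 in Met mice. miR-126-3p fell in CR against Met (Z ratio -2.72, limma adjusted p = 0.0852, lower in 3 of 5 CR mice) and was not called without CR mice 2 and 3 (-0.761). It was also not called by detected probes (-0.596), all probes (-0.484), quantile normalization (-0.595), total gene signal (-0.287) or z-scores over detected miRNAs (-2.02). miR-126-5p was not called, but was called lower in CR than in SD and Met by detected probes (-2.61 and -2.57) and total gene signal (-3.51 and -3.26). It was not detected in CR mice 2 and 3 (4.48 and 3.68) and entered the tests through SD and Met, so these calls rest in part on values at background and nothing is read from them. The 5 stromal markers, led by miR-199a-3p, summed to 139.4, 146.6, 174.7, 140.2 and 146.3 in SD mice, 136.0, 69.0, 61.5, 90.0 and 247.3 in CR mice, and 175.8, 146.5, 139.5, 185.5 and 187.6 in Met mice. Of these 5, limma called 0, while 3 had an unadjusted p of 0.05 or less for CR against SD, 2 for CR against Met and 0 for Met against SD, again beside 74, 80 and 12 of 178. This 0 too is for the main z-scores. By detected probes miR-145a-5p (2.64) and miR-214-3p (1.85) were called higher in CR than in SD, and against Met miR-145a-5p higher (2.02) and miR-199a-3p lower (-1.98). Total gene signal gave these calls and miR-214-3p higher than in Met (1.62). miR-199a-3p was also called lower than in Met with no scaling (-1.55) and normexp (-1.74). Calls of these markers thus depended on the processing, and no change is read from them. Biliary epithelial markers were near background. Of the 5, miR-200c-3p, miR-141-3p and miR-429-3p were detected on 0 of 15 arrays, and miR-200b-3p was the most abundant and was not called. Their sum was 17.8, 25.9, 19.1, 33.5 and 20.7 in SD mice, 30.1, 9.60, 10.1, 12.5 and 47.7 in CR mice, and 22.7, 19.1, 26.7, 37.8 and 34.0 in Met mice.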

How the data were processed

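For each array the authors deposited the intensity of every spot on a linear scale, with flags from Feature Extraction 11.5.1.1, and a table of scores, with a value on 14635 of its 15744 lines. Where present, the deposited score equalled the z-score of the natural log of the median spot signal within an array, to within 0.0005. z-scores were computed here from the intensity values, over 14635 spots per array. Outlier spots were dropped, spots were averaged by probe and probes by miRNA. Background-subtracted signal is the software's own. The number of arrays, 5 per group, limits precision, and summed signals of all arrays are given with the results.

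The 3 comparisons came from 1 limma fit (limma 3.58.1, R 4.3.3) with variances that follow the mean, over 178 tested miRNAs. The study's limits were used, with limma's p in place of its pairwise z-test, which was an alternative. Before use, the limma fit was tested on simulated data, with the spread of the SD arrays in every group. The CR values of the pair spread more widely than that, so the simulation does not show how the fit behaves for them. Reading and summaries used pandas 2.3.3, numpy 2.4.6 and scipy 1.17.1 under Python 3.11.15, and plots used matplotlib 3.10.9. Alternatives were other scalings, background corrections, filters, probes, tests, blocks, single slides and leaving out mice. Normexp background correction used an offset of 50, and percentile scaling a floor of 0.01.

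The members and lists were chosen with earlier results of these data known. The named miRNAs were the miR-101 entries, miR-144-3p, other known repressors of Ezh2, Mcl1 and Ptgs2, the 5 most correlated with the pair, and cell type markers. The array lists miR-145-5p as miR-145a-5p and has no entry for miR-144-5p or miR-486-5p. Sequences came from RefSeq tables, and array coordinates, which refer to another build, were left out. Measurements other than the arrays were not analysed.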

Additional observations from a re-analysis of the deposited data

Results flagged for a closer look

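On z-scores, 105 groups of 5 mice were examined, 18 of them for the members and their probes. Of these, 0 held a mouse whose gap to the nearest of the others exceeded 0.71 of the group's range. Chance gives about 1 in 20. CR mice 2 and 3 were low together, and this measure does not pick out a pair. The 0 does not cover background-subtracted signals. There SD mouse 3 stood apart for miR-101b-3p, at 255.8 with the other SD mice from 190.0 to 207.5.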

How the results depend on the processing

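The pair was chosen by its values in these contrasts, so the ranges below describe size and are no sign of stability. The Z ratio of miR-101a-3p was -4.83 to -1.75 against SD over 33 alternatives and -4.89 to -1.88 against Met over 34. That of miR-101b-3p was -4.68 to -1.66 against SD and -4.57 to -1.69 against Met, with -3.54 on slide 2 alone, which has fewer arrays. Between Met and SD miR-101a-3p was at -0.735 to 0.569 (4 of 34 above 0) and miR-101b-3p at -1.39 to -0.159. Leaving out each mouse in turn gave, for miR-101a-3p, -2.47 to -2.26 against SD, -2.58 to -2.32 against Met and -0.536 to 0.0765 between Met and SD, and for miR-101b-3p -4.12 to -3.77, -3.97 to -3.64 and -1.39 to -0.631. Leaving out CR mice 2, 3 and 4, chosen after seeing the data, left miR-101a-3p under 1.5 in size (-1.29 against SD, -1.46 against Met). Requiring detection on all 15 arrays gives no value for miR-101a-3p, not detected on 2.

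The count called between CR and SD (31) was 67 and 11 with 75th percentile scaling by detected and by all probes, 64 with total gene signal, 17 with the slide as a block and 15 without CR mice 2, 3 and 4. Between CR and Met (37) the scalings gave 76, 10 and 80, slide 2 alone 12, and leaving out CR mice 2 and 3, or 2, 3 and 4, gave 17 and 3. Splits into higher and lower in CR, against SD and against Met, were 5 and 26, 8 and 29 with z-scores, 43 and 24, 45 and 31 by detected probes, 0 and 11, 0 and 10 by all probes, 36 and 28, 53 and 27 with total gene signal, 25 and 17, 22 and 26 with quantile normalization, 17 and 21, 18 and 22 with z-scores over detected miRNAs, 0 and 28, 0 and 35 with no scaling, 4 and 18, 3 and 14 without CR mice 2 and 3, and 9 and 6, 1 and 2 without CR mice 2, 3 and 4, so the side with more calls was not always the same. The cause was not tested.

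Between Met and SD (2), limma called 0 by detected or all probes (15 and 6 at unadjusted p of 0.05 or less), with z-scores over detected miRNAs (7), total gene signal (7), an adjusted p limit of 0.05 (12), the slide as a block (5) and slide 1 alone (7). It was 1 with quantile normalization or no filter, 4 with only the groups compared, 8 with no scaling, 13 with the z-test, 5 without CR mice 2 and 3, and 7 without CR mice 2, 3 and 4. Leaving out each mouse gave 26 to 36, 29 to 42 and, between Met and SD, 1 to 12, with 12 without SD mouse 5 and 1 without SD mouse 2, 3 or 4 or Met mouse 2, 4 or 5. With a replicate block the Z ratios were -2.39, -2.48 and -0.221 for miR-101a-3p and -3.95, -3.83 and -1.03 for miR-101b-3p, with 32, 37 and 2 called. These Z ratios equal the main ones by design, since every group holds every replicate number. Same-numbered arrays had a median correlation of -0.11 over 15 pairs, so numbers do not pair mice.

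miR-26a-5p between CR and SD (-0.208) became 0.916 and 0.117 by detected and all probes, 1.56 with quantile normalization, 0.740 with z-scores over detected miRNAs, 0.0754 with normexp, 0.701 with total gene signal and 0.956 without CR mice 2 and 3. Against Met (-1.46) it became 0.244 by detected probes, 0.259 with quantile normalization and 0.465 with total gene signal. miR-29a-3p against SD (0.285) became -0.853 with no scaling, and against Met (-0.660) 0.619 and 0.0409 by detected and all probes, 0.144 with quantile normalization, 0.324 with z-scores over detected miRNAs, 0.798 with total gene signal and 0.0993 without CR mice 2 and 3. Of 20 called Z ratios of other named miRNAs, 122 of 160 values under 8 alternatives were called and 160 had the same sign, and of 67 not called, 32 changed sign. The deposited scores, which repeat the main z-scores, were among the 8, so their values add nothing to these tallies. Without CR mice 2 and 3, which is not among the 8, 15 of the 20 were still called. Signals near background in CR mice 2 and 3 limit how well a difference can be sized.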
